A study of Homo sapiens with 6 samples.

Results

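The genes described here are 43 genes of the centromere, the kinetochore and the spindle checkpoint, found by symbol among the 62703 genes of the deposited counts, each with 1 row. They were grouped into 9 subcomplexes by the known place of their proteins, and mRNA levels were compared between 2 hydrogels. The cells were A549, an established human lung adenocarcinoma line of epithelial origin, kept in DMEM/F12 with serum. S-AlgLung, with 3 libraries, was the hydrogel tested, and AlgLung, also with 3 libraries, was the one it was set against. The labels do not spell out the S; the title of the series speaks of sulfated extracellular matrix, and both groups share the cell line. No label says whether the replicates were separate cultures, so every p-value refers to how much the libraries of a group vary, and that variation may be technical.

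The kinetochore is the protein machine that ties a chromosome to the spindle. Nucleosomes holding the histone variant CENP-A mark the centromere, an inner layer called the constitutive centromere-associated network (CCAN) binds them, and an outer layer of the KNL1, MIS12 and NDC80 complexes grips microtubules, helped by the SKA complex and the fibrous corona. The spindle checkpoint proteins sit on unattached kinetochores and hold back anaphase, while the shugoshins guard the cohesion of sister centromeres. Many of these genes are transcribed mainly from late S phase to mitosis, so in a mixed culture their mRNA level also follows the share of dividing cells; others are transcribed throughout the cycle.

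The libraries held 24132875, 26495444 and 25740757 counts in S-AlgLung and 23682120, 22978408 and 23164975 in AlgLung. The main axis of variation over all tested genes (40.6% of the variance) separated the hydrogels. The next (28.9%) set S-AlgLung 3 apart from every other library, and the nuclear RNAs MALAT1 and NEAT1 took 0.0264% of its counts, against 0.00398% to 0.00736% in the other libraries. All 7 epithelial and A549 markers passed the filter, with summed levels of 12925, 18835 and 9857 CPM (counts per 1000000 counts of the library) in S-AlgLung and 15002, 19401 and 17886 in AlgLung. Of the 7, 0 were called and 5 had a log2 fold change below 0. EPCAM had 2.99, 3.08 and 5.40 CPM in S-AlgLung and 2.34, 1.53 and 1.99 in AlgLung, higher in every S-AlgLung library. Its log2 fold change was 0.97 (SE 0.31, adjusted p 0.0729 by edgeR, or 0.0430 with no filter on low counts). Of the markers of other cells, 2 of 6 fibroblast genes passed the filter, COL1A1 with 440 counts and COL3A1 with 648 over all libraries, and DCN had 1. Summed fibroblast markers were 7.18 to 9.35 CPM in S-AlgLung and 7.86 to 8.24 in AlgLung. Of 5 endothelial genes 2 passed, PECAM1 with 274 counts and CDH5 with 177, and KDR had 1. Summed endothelial markers were 3.17 to 3.80 CPM in S-AlgLung and 2.34 to 3.68 in AlgLung. PECAM1 was not called, but each S-AlgLung library was above each AlgLung library (0.79 on the log2 scale, SE 0.33, adjusted p 0.228 by edgeR). The pan-leukocyte marker PTPRC had 5 counts, although summed leukocyte markers were 187.5 to 238.4 CPM in S-AlgLung and 88.7 to 132.0 in AlgLung, with CD14 and CD68 called higher in S-AlgLung; CD68 shares 81.6% of its exon bases with a same-strand gene of 6.54 times its counts. LYZ was not called, but each S-AlgLung library was above each AlgLung library (1.08, SE 0.40, adjusted p 0.141 by edgeR). The part of these differences in the results below was not tested.

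In S-AlgLung cells 13 of the 43 genes fell and 0 rose. They were the checkpoint kinases BUB1 and TTK and the pseudokinase BUB1B, the corona genes CENPF and CENPE, KNL1 and its partner ZWINT, NUF2 of the NDC80 complex, SKA3, CENPI and CENPK of the inner kinetochore, the CENP-A chaperone HJURP, and the shugoshin SGO1. Their levels were 1.87- to 5.17-fold lower in S-AlgLung than in AlgLung. Values are CPM scaled by trimmed-mean (TMM) factors, given in the order of replicates 1, 2 and 3. The test is edgeR's quasi-likelihood test, with Benjamini-Hochberg adjustment over all 18544 genes tested and a threshold of 0.05. Across all of these, 1.99% of genes were called lower and 3.15% higher. Of the 43 genes, 42 passed the filter on low counts (about 0.418 CPM in at least 3 libraries) and SKA1 did not. For 7 of the 42, including 6 of the 13, all AlgLung libraries but not all S-AlgLung libraries were above this level. The 6 were CENPK, KNL1, NUF2, SKA3, TTK and SGO1. For this reason the table was also fitted with no filter. All 43 genes were then tested, 14 were lower and 0 higher, beside 1.28% lower and 2.17% higher over all genes. At an unadjusted p under 0.05 no member was higher either, by edgeR, DESeq2 or limma-voom. The share of all genes under that unadjusted p was not counted, so this count has no background beside it. The median log2 fold change, S-AlgLung over AlgLung, was -0.58 over the 42 and 0.03 over all tested genes. With no filter it was -0.69 over the 43 and 0.04 over all genes. In bulk RNA, fewer cells of a type and less RNA per cell cannot be told apart.

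The 3 libraries of each hydrogel did not overlap, with S-AlgLung the lower, for 18 of the 43 genes, against 8.05% of tested genes. The opposite order was found for 0 members, against 10.4% of tested genes. All 13 genes that passed the test were among the 18, and the other 5 were CENPM, CENPU, CENPW, DSN1 and SPC25. Within the AlgLung group, library 1 was the highest for 9 of the 13 called genes and library 2 the lowest for 9. Within S-AlgLung, library 2 was the highest for 9 of them, and library 3 was the lowest for 6, as was library 1.

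**Figure D1:**
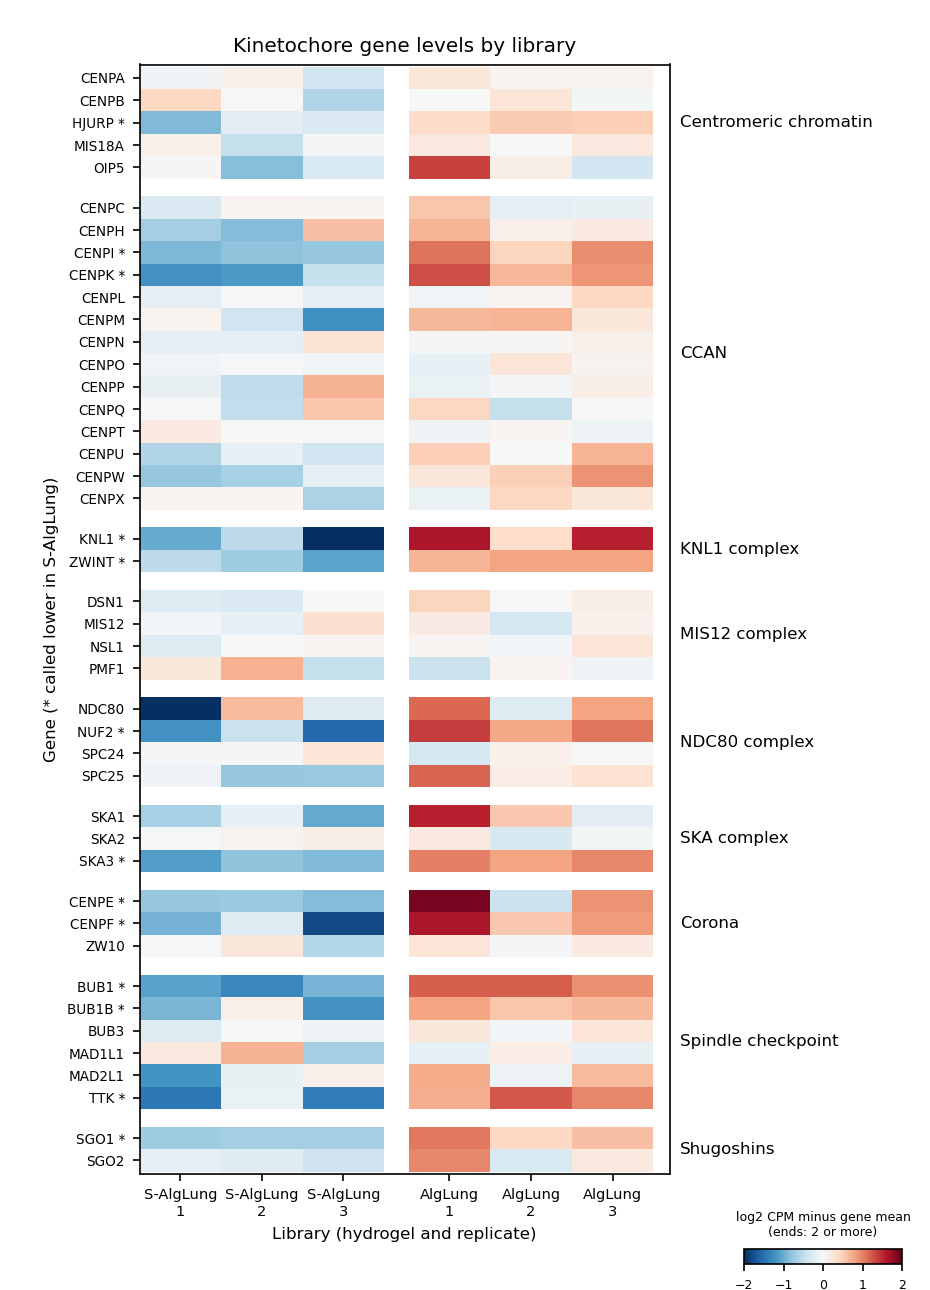
Levels of the 43 genes in each library, as log2 CPM minus the gene's mean over the 6 libraries, with S-AlgLung libraries left of AlgLung libraries and genes grouped by subcomplex; colours end at differences of 2 or more. Each of the 13 genes called lower (*) is lower in every S-AlgLung library than in any AlgLung library; rows such as CENPT, SPC24 and SKA2 show no such split.

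Promoter windows are shown for 3 members, because members that fell together can be set beside one that did not: BUB1 and CENPF, the 2 called genes with the smallest p whose window holds a cell-cycle homology region (CHR), and CENPQ, the tested member with the largest p. BUB1 lies on chr2:110637528-110678063 and its window is chr2:110678014-110678313, minus strand. CENPF lies on chr1:214603195-214664571 and its window is chr1:214602945-214603244, plus strand. The CENPQ window is chr6:49463120-49463419, plus strand. Each runs 5′ to 3′ from 250 bases before the gene start to 50 after it, from RefSeq (GRCh38.p14), and capitals mark the CHR (TTTGAA or TTCGAA) and CCAAT boxes, found on either strand.
BUB1: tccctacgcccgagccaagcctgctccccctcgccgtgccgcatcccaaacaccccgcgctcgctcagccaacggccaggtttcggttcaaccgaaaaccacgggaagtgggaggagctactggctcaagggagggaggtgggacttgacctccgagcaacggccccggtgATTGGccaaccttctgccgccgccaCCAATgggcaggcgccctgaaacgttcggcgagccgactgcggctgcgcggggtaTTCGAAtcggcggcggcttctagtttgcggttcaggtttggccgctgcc
CENPF: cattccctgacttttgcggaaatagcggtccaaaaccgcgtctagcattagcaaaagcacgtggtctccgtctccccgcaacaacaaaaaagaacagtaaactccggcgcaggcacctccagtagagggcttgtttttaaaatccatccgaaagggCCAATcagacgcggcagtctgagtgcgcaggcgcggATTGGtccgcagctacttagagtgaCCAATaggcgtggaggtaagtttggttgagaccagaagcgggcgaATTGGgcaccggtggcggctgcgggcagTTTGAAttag
CENPQ: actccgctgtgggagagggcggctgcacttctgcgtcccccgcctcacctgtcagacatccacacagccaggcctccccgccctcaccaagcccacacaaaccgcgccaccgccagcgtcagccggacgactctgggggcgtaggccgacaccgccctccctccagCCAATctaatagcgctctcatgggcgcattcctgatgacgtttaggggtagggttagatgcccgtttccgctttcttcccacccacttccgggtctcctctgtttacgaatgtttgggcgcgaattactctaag
Counted from 1 at the 5′ end, the BUB1 window has TTCGAA at 252, just at the gene start, with a reversed CCAAT box at 172 and a direct one at 197. The CENPF window has TTTGAA at 291, direct CCAAT boxes at 157 and 218, and reversed ones at 193 and 263. The CENPQ window has a CCAAT box at 167 and no CHR. Of the 43 genes, 36 had a window in the table. A CHR was found in 19 of the 36 (52.8%), against 16.4% of all 35116 windows. It stood in 8 of 11 called genes with a window and in 10 of 24 tested genes that were not called. A CCAAT box was found in 6 of the 11 and 16 of the 24, against 34.6% of all windows. The E2F strings TTTGGCGC, TTTCCCGC, TTTGCCGC and TTTCGCGC were in 0 of the 11 and in 4 of the 24 (CENPA, OIP5, CENPU and MIS12), against 3.31% of all windows. These matches describe letters in a window and are not binding sites.

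Among the 5 genes of centromeric chromatin, HJURP, the chaperone that hands new CENP-A to the centromere, was the 1 that fell. HJURP (chr2:233833416-233854566) had 10.2, 16.1 and 15.1 CPM in S-AlgLung and 24.4, 26.8 and 26.4 in AlgLung. All S-AlgLung libraries were below all AlgLung ones, and the log2 fold change was -0.90 (SE 0.22, adjusted p 0.0112). CENPA, the centromeric histone itself, had 12.2, 13.9 and 9.81 CPM in S-AlgLung and 15.3, 13.3 and 13.5 in AlgLung. Its groups overlapped, at -0.23 (SE 0.22, adjusted p 0.727). CENPA shares 138 exon bases with SLC35F6 on the same strand, a gene with 7.38 times its counts and a log2 fold change of 0.03. Reads over the shared bases may therefore be counted for either gene or for both. CENPB, which binds the CENP-B box of alpha satellite DNA, had 374.6, 282.3 and 184.2 CPM in S-AlgLung and 277.7, 333.5 and 269.7 in AlgLung. The highest and the lowest of these 6 values were both S-AlgLung libraries (log2 fold change -0.07, SE 0.27, adjusted p 0.959).

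MIS18A and OIP5 encode subunits of the Mis18 complex, which licenses the centromere for new CENP-A. MIS18A had 1.59, 1.06 and 1.42 CPM in S-AlgLung and 1.69, 1.44 and 1.70 in AlgLung, with overlapping groups (-0.25, SE 0.35, adjusted p 0.838). OIP5 had 0.544, 0.296 and 0.426 CPM in S-AlgLung and 1.38, 0.585 and 0.414 in AlgLung. AlgLung 1 alone stood high, and the difference missed the threshold (-0.92, SE 0.49, adjusted p 0.402). OIP5 shares exons with 3 genes on the other strand. OIP5-AS1 had 70.7 times its counts and a log2 fold change of -0.13 (adjusted p 0.876), NUSAP1 had 7.96 times its counts and was itself lower (-1.22, adjusted p 0.0028), and an unnamed gene had 14.5 times its counts (-0.74, adjusted p 0.0581). Their part in the OIP5 value was not tested.

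Of the 14 CCAN genes, CENPI and CENPK fell, and both belong to the CENP-H/I/K/M group of the inner kinetochore. CENPI (chrX:101098188-101166126) had 0.861, 0.929 and 0.959 CPM in S-AlgLung and 3.41, 2.20 and 3.06 in AlgLung (log2 fold change -1.65, SE 0.34, adjusted p 0.00195). CENPK (chr5:65517766-65563168) had 0.408, 0.422 and 0.675 CPM in S-AlgLung and 2.30, 1.48 and 1.74 in AlgLung (log2 fold change -1.85, SE 0.40, adjusted p 0.00355). The hydrogels were well apart for both genes, though CENPK had only 9, 10 and 19 counts in S-AlgLung. CENPM, a GTPase-like member of the same group, had 2.45, 1.77 and 0.995 CPM in S-AlgLung and 3.68, 3.73 and 2.73 in AlgLung. Its groups did not overlap but the test missed the threshold (-0.97, SE 0.33, adjusted p 0.0973); with no filter its adjusted p was 0.0455. CENPH, the fourth gene of the group, had 0.861, 0.760 and 2.10 CPM in S-AlgLung and 2.22, 1.48 and 1.57 in AlgLung, S-AlgLung 3 being as high as the AlgLung libraries (-0.49, SE 0.39, adjusted p 0.649).

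The CCAN genes outside that group were not called. CENPC, whose protein is the scaffold between CENP-A and the outer kinetochore, had 1.68, 2.15 and 2.13 CPM in S-AlgLung and 3.03, 1.80 and 1.86 in AlgLung. Its values overlapped and the log2 fold change was -0.17 (SE 0.32, adjusted p 0.895). Among the histone-fold genes, CENPT, which recruits NDC80, had 37.0, 32.8 and 32.4 CPM in S-AlgLung and 30.9, 33.6 and 30.4 in AlgLung (0.11, SE 0.21, adjusted p 0.896). CENPW, the partner of CENP-T, had 0.589, 0.633 and 0.888 CPM in S-AlgLung and 1.19, 1.39 and 1.86 in AlgLung. The CENPW groups were apart while those of CENPT overlapped, and the CENPW log2 fold change of -1.06 missed the threshold (SE 0.39, adjusted p 0.144). CENPX, a further histone-fold gene, was at -0.35 (SE 0.23, adjusted p 0.546). CENPN and CENPL encode the partners that read the CENP-A nucleosome. CENPN had 12.7, 12.8 and 17.9 CPM in S-AlgLung and 14.1, 14.8 and 15.8 in AlgLung (-0.04, SE 0.22, adjusted p 0.970), so S-AlgLung libraries lay on both sides of AlgLung. CENPL was at -0.28 (SE 0.25, adjusted p 0.692).

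The CENP-O/P/Q/U group, which helps to dock the kinase PLK1, held CENPQ with 1.18, 0.844 and 1.74 CPM in S-AlgLung and 1.61, 0.854 and 1.20 in AlgLung. The CENPQ groups overlapped throughout (0.04, SE 0.39, adjusted p 0.986). CENPU had 0.680, 0.929 and 0.782 CPM in S-AlgLung and 1.46, 1.03 and 1.66 in AlgLung, apart but not called (-0.79, SE 0.38, adjusted p 0.328). CENPO and CENPP had log2 fold changes of -0.12 (SE 0.22, adjusted p 0.889) and 0.12 (SE 0.27, adjusted p 0.912). Across the 14 CCAN genes the median log2 fold change was -0.31.

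The outer kinetochore was split between and within its complexes. Both genes of the KNL1 complex fell. KNL1 (chr15:40594020-40664342), the scaffold on which the checkpoint proteins gather, had 0.363, 0.507 and 0.178 CPM in S-AlgLung and 2.26, 0.944 and 2.15 in AlgLung. Its groups were apart, and its log2 fold change of -2.37 (SE 0.46, adjusted p 0.00125) was the lowest of the 42. It rests on few reads, 8, 12 and 5 counts in S-AlgLung and 59, 21 and 52 in AlgLung. ZWINT (chr10:56357227-56361273), which binds KNL1 and brings in the RZZ complex, had 3.63, 3.21 and 2.49 CPM in S-AlgLung and 8.39, 9.17 and 9.15 in AlgLung. The AlgLung libraries lay close together, well above S-AlgLung (-1.52, SE 0.25, adjusted p 0.000185).

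None of the 4 genes of the MIS12 complex, the stalk that joins the inner and outer layers, was called by edgeR, DESeq2 or limma-voom. Likewise 0 of them had an unadjusted p under 0.05 in any of these. With 4 genes, 0 called lies near the edgeR shares over all tested genes, 1.99% lower and 3.15% higher. DSN1 had 3.67, 3.63 and 4.41 CPM in S-AlgLung and 6.06, 4.45 and 4.88 in AlgLung, apart by a narrow gap (-0.39, SE 0.26, adjusted p 0.546). NSL1 had 10.2, 12.2 and 12.6 CPM in S-AlgLung and 12.6, 11.6 and 14.7 in AlgLung (-0.15, SE 0.22, adjusted p 0.848). MIS12 had 10.7, 10.0 and 14.2 CPM in S-AlgLung and 12.7, 8.86 and 12.1 in AlgLung (0.05, SE 0.23, adjusted p 0.963). Both genes overlapped between the hydrogels. PMF1 had 52.0, 72.5 and 32.1 CPM in S-AlgLung and 32.5, 46.0 and 41.7 in AlgLung (0.38, SE 0.25, adjusted p 0.539). S-AlgLung 3 was the lowest library for PMF1, and without it the log2 fold change was 0.61 (adjusted p 0.0395 by edgeR). Without S-AlgLung 2, the highest, the PMF1 log2 fold change was 0.07 (adjusted p 0.959). Leaving out S-AlgLung 3 also gave the most calls over all genes, 662 lower and 891 higher. PMF1 shares exons with the read-through gene PMF1-BGLAP, so reads over the shared exons may be counted for either gene or for both.

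In the NDC80 complex, the rod that holds the microtubule, NUF2 fell. NUF2 (chr1:163266576-163355764) had 0.272, 0.464 and 0.213 CPM in S-AlgLung and 1.65, 1.08 and 1.32 in AlgLung, with groups apart (-2.09, SE 0.45, adjusted p 0.00323). Its counts were 6, 11 and 6 in S-AlgLung and 43, 24 and 32 in AlgLung. NDC80, the direct partner of NUF2 in the rod, had 0.0907, 0.591 and 0.320 CPM in S-AlgLung and 0.843, 0.315 and 0.662 in AlgLung. These are 2, 14 and 9 counts in S-AlgLung and 22, 7 and 16 in AlgLung. The groups overlapped, and the difference was not called (-0.85, SE 0.54, adjusted p 0.518 by edgeR). NDC80 counts were few, and its libraries differed 6.52-fold within S-AlgLung and 2.68-fold within AlgLung. The part of either in the missing call was not tested. SPC25 and SPC24 form the end of the rod that faces the chromosome. SPC25 had 1.22, 0.760 and 0.782 CPM in S-AlgLung and 2.91, 1.44 and 1.61 in AlgLung, apart but not called (-1.12, SE 0.38, adjusted p 0.0972). SPC24 (chr19:11131520-11155807) had 20.1, 20.9 and 24.7 CPM in S-AlgLung and 16.2, 22.1 and 20.7 in AlgLung, overlapping (0.16, SE 0.21, adjusted p 0.829).

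The SKA complex tracks microtubule ends beside NDC80. SKA3 (chr13:21153595-21176552) fell, with 0.272, 0.338 and 0.320 CPM in S-AlgLung and 1.19, 1.03 and 1.16 in AlgLung. The groups lay well apart (-1.84, SE 0.44, adjusted p 0.00887). They rest on few reads, 6, 8 and 9 counts in S-AlgLung and 31, 23 and 28 in AlgLung. SKA2 had 11.9, 12.8 and 13.2 CPM in S-AlgLung and 14.0, 9.62 and 11.6 in AlgLung, overlapping (0.11, SE 0.22, adjusted p 0.905). SKA1, the gene under the filter, had 6, 9 and 6 counts in S-AlgLung and 33, 14 and 9 in AlgLung. Its groups met at 9 counts in raw numbers, and with no filter its log2 fold change was -1.41 (adjusted p 0.150).

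Levels per kilobase of exon differed widely between partners of 1 complex, in both hydrogels. SPC24 stood at 7.73 CPM per kb in S-AlgLung and 6.93 in AlgLung, while NDC80 stood at 0.0939 in S-AlgLung and 0.171 in AlgLung. SKA2 stood at 3.91 CPM per kb in S-AlgLung and 3.63 in AlgLung, and SKA3 at 0.103 in S-AlgLung and 0.376 in AlgLung. In the KNL1 complex, ZWINT reached 1.31 CPM per kb in S-AlgLung and 3.75 in AlgLung, and KNL1 0.0341 in S-AlgLung and 0.174 in AlgLung. The 19 members with a mean of at least 5 CPM held 3 of the 13 called genes (HJURP, CENPF and ZWINT), against 1.38% of tested genes at that level. The members under 5 CPM held the other 10, in 23 tested, against 3.17% of tested genes. The 7 genes with every AlgLung library but not every S-AlgLung library above the filter level are all among those under 5 CPM, so these counts are a description.

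**Figure D2:**
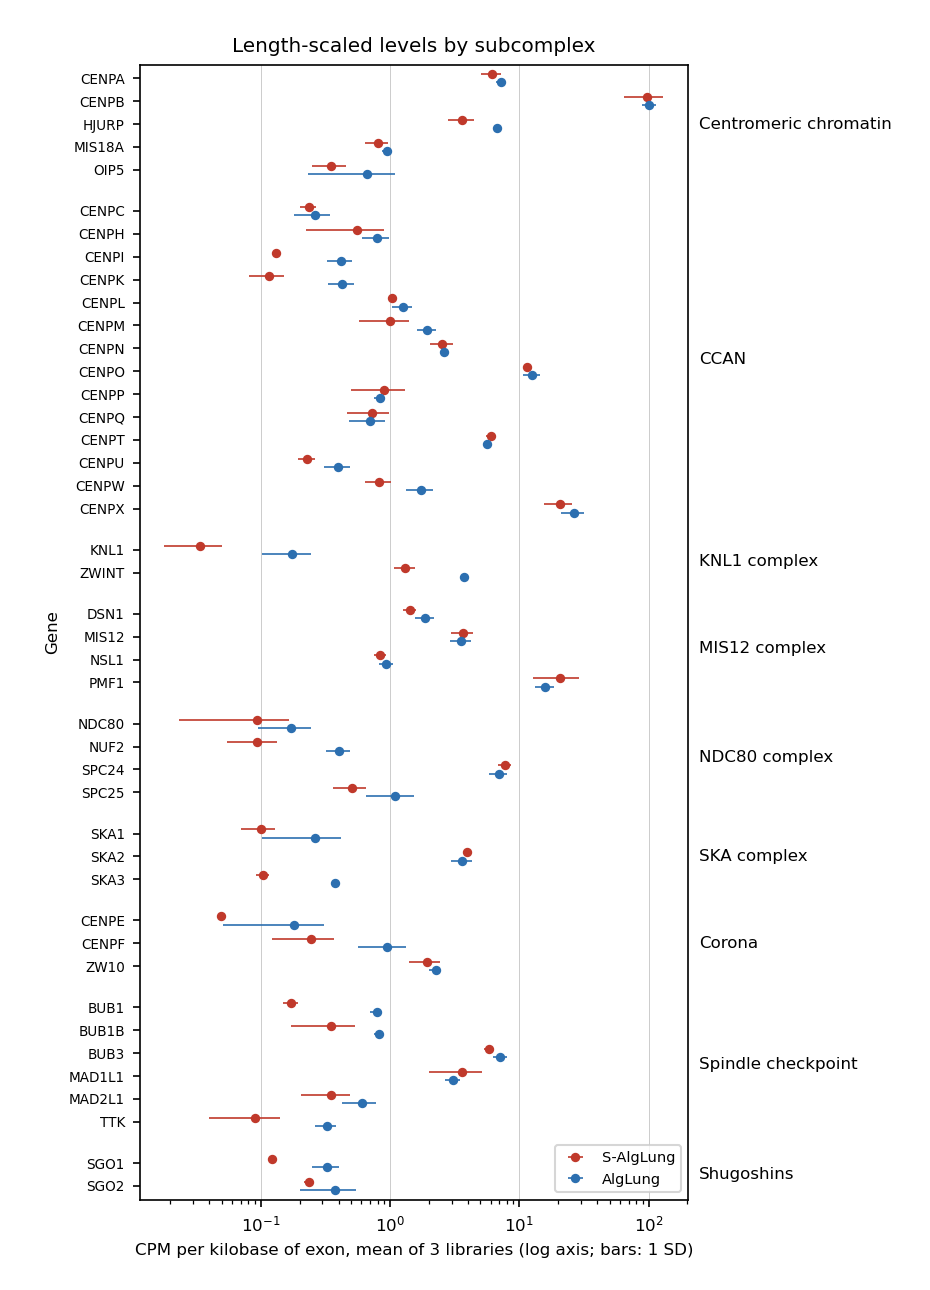
Mean level of each gene in CPM per kilobase of exon, on a log axis, for S-AlgLung and AlgLung, by subcomplex, with bars of 1 SD over the 3 libraries. In the NDC80 complex SPC24 (7.73 in S-AlgLung and 6.93 in AlgLung) stands far above NUF2 (0.0942 in S-AlgLung and 0.402 in AlgLung).

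The corona is the mesh on unattached kinetochores that catches microtubules. CENPF, a large farnesylated protein that binds dynein regulators and peaks in G2 and mitosis, had 2.72, 4.35 and 1.49 CPM in S-AlgLung and 16.1, 7.55 and 9.44 in AlgLung. It fell, with no overlap (-1.96, SE 0.32, adjusted p 0.000148). CENPE (chr4:103105349-103198445), the kinesin that moves chromosomes to the spindle equator, had 0.499, 0.507 and 0.462 CPM in S-AlgLung and 3.18, 0.629 and 1.57 in AlgLung. Its groups were apart and the test was passed (-1.88, SE 0.47, adjusted p 0.0129), but the AlgLung libraries differed 5.05-fold among themselves. Without AlgLung 1 its log2 fold change was -1.22 (adjusted p 0.285). ZW10, the RZZ subunit that brings dynein to kinetochores and also serves in membrane traffic, had 5.85, 6.97 and 3.98 CPM in S-AlgLung and 7.17, 5.80 and 6.75 in AlgLung. The ZW10 groups overlapped (-0.24, SE 0.26, adjusted p 0.770).

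Among the 6 checkpoint genes BUB1, TTK and BUB1B fell. BUB1, the kinase that marks centromeric histone H2A and recruits shugoshins, had 1.09, 0.929 and 1.21 CPM in S-AlgLung and 5.25, 5.31 and 4.35 in AlgLung. It had the smallest adjusted p of the 42, with groups far apart (-2.20, SE 0.30, adjusted p 1.765e-05). TTK (chr6:80003887-80042527), also called MPS1, the kinase that starts checkpoint signalling on KNL1, had 0.272, 0.676 and 0.284 CPM in S-AlgLung and 1.23, 1.75 and 1.45 in AlgLung (-1.84, SE 0.44, adjusted p 0.00870). BUB1B (chr15:40161023-40221123), which encodes the BUBR1 subunit of the mitotic checkpoint complex, had 1.22, 2.49 and 0.995 CPM in S-AlgLung and 3.99, 3.37 and 3.60 in AlgLung (-1.22, SE 0.33, adjusted p 0.0252). For both genes S-AlgLung 2 was the highest S-AlgLung library and still lay below every AlgLung library. TTK had only 6, 16 and 8 counts in S-AlgLung.

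The other checkpoint genes were not called. BUB3, the adaptor that carries BUB1 and BUBR1 to KNL1, had 43.8, 52.0 and 48.5 CPM in S-AlgLung and 61.7, 50.5 and 62.9 in AlgLung (-0.28, SE 0.22, adjusted p 0.631). MAD1L1, the platform for MAD2 conversion, had 25.2, 35.7 and 13.8 CPM in S-AlgLung and 19.8, 24.6 and 19.5 in AlgLung, so S-AlgLung held both extremes (0.22, SE 0.26, adjusted p 0.784). MAD1L1 shares 43.2% of its exon bases with an unnamed same-strand gene of 1.88 times its counts. MAD2L1, the MAD2 protein that binds CDC20, had 1.04, 2.15 and 2.56 CPM in S-AlgLung and 4.02, 2.20 and 3.73 in AlgLung, overlapping in AlgLung 2 (-0.78, SE 0.34, adjusted p 0.247). Without S-AlgLung 3 its log2 fold change was -1.08 (adjusted p 0.0164 by edgeR), and without S-AlgLung 1 it was -0.50 (adjusted p 0.605).

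Of the shugoshins, SGO1 (chr3:20160593-20186206), which shields centromeric cohesin in mitosis, had 0.453, 0.464 and 0.462 CPM in S-AlgLung and 1.53, 0.989 and 1.12 in AlgLung. The groups were apart, but the call was close to the threshold (-1.39, SE 0.42, adjusted p 0.0458) and was lost in 8 of the 13 alternatives that tested it, among them DESeq2 (adjusted p 0.0507). It also shares exons with SGO1-AS1, on the other strand with 0.431 times its counts and itself lower (-1.91, adjusted p 0.0428). SGO2, best known for guarding cohesin in meiosis in mice, had 1.59, 1.52 and 1.35 CPM in S-AlgLung and 3.56, 1.44 and 2.07 in AlgLung. AlgLung 2 lay among the S-AlgLung libraries, and the difference was not called (-0.67, SE 0.35, adjusted p 0.376).

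**Figure D3:**
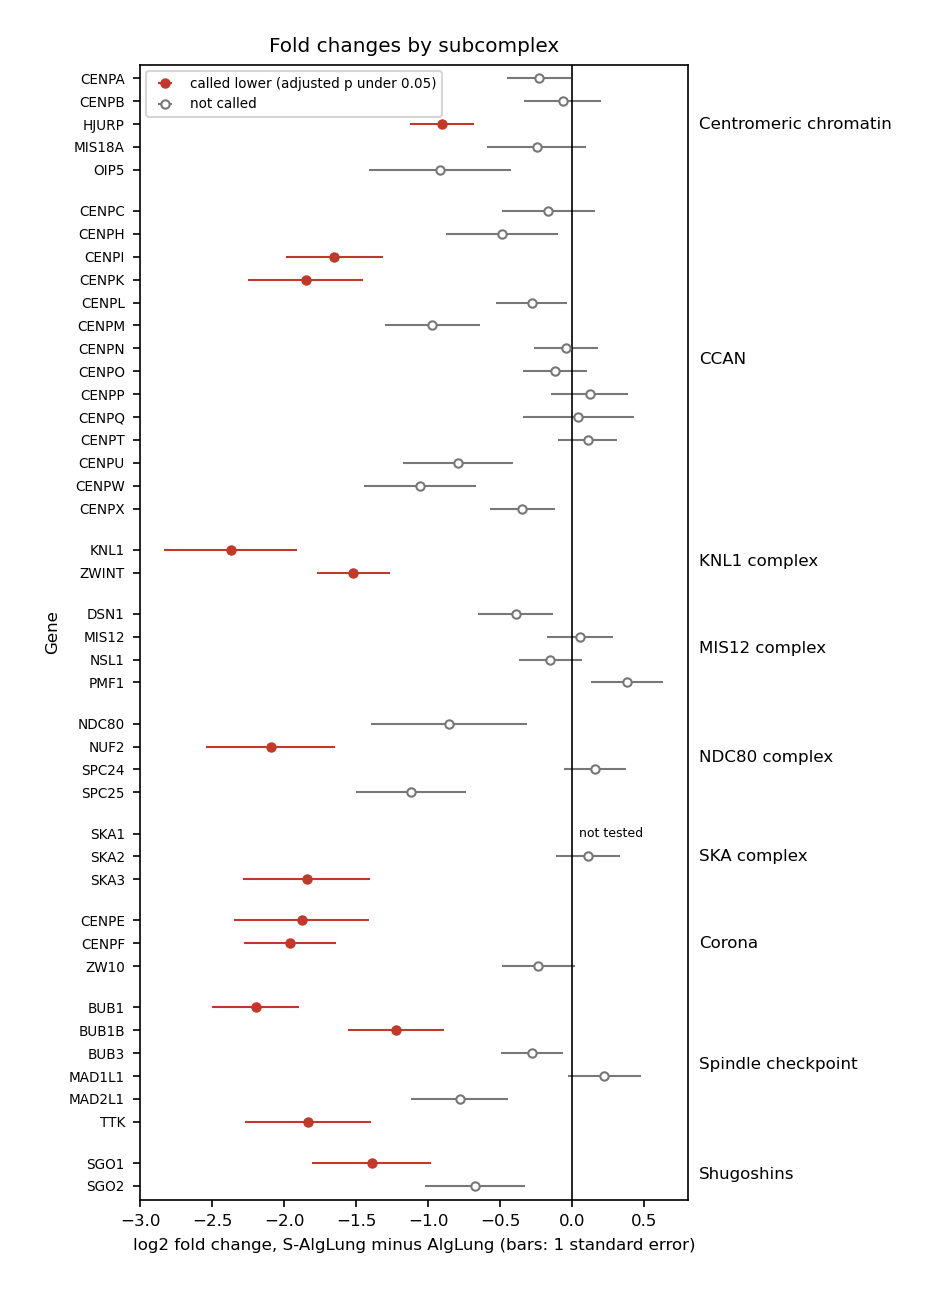
Log2 fold change, S-AlgLung over AlgLung, with its standard error, for each tested gene by subcomplex, with called genes marked. KNL1 (-2.37) and BUB1 (-2.20) lie farthest to the lower side, and PMF1 (0.38) farthest to the higher side without being called.

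**Figure D4:**
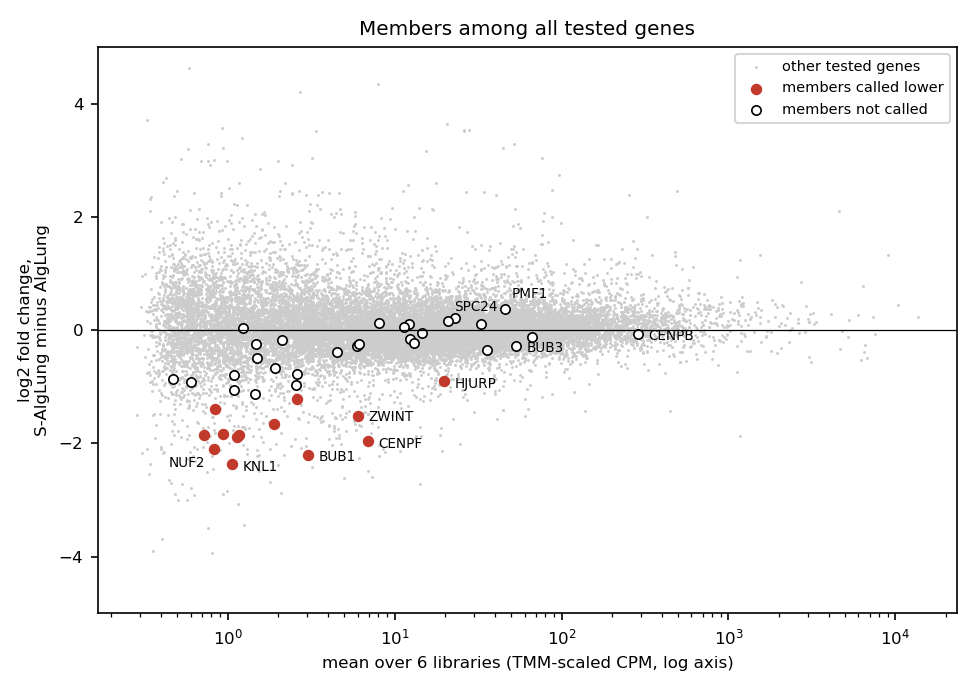
Log2 fold change (S-AlgLung over AlgLung) against mean level in TMM-scaled CPM on a log axis for all 18544 tested genes, with the 42 tested members on top. The 13 called members lie on the lower side, mostly at low levels, while members at high levels lie near 0.

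Summed over the 43 genes, levels were 766.9, 726.3 and 555.6 CPM in S-AlgLung and 727.9, 799.6 and 739.5 in AlgLung, overlapping between the hydrogels. CENPB gave at least 184.2 CPM in every library, and without it the sums were 392.3, 444.0 and 371.4 CPM in S-AlgLung and 450.2, 466.1 and 469.8 in AlgLung. These did not overlap, by a narrow gap (444.0 against 450.2 CPM). The 13 called genes gave only 22.3, 31.4 and 24.8 CPM in S-AlgLung and 74.9, 62.4 and 66.5 in AlgLung. They were picked by the test on the same values, so their sums are a description. Exon overlap with other genes touched 16 members, in that a gene with at least 25% of the member's counts shares exon bases with it, on the same strand for 3 (CENPA, MAD1L1 and PMF1) and on the other strand for 13 (CENPL, CENPN, CENPO, CENPP, CENPT, CENPU, CENPX, MIS12, NUF2, OIP5, SGO1, SGO2 and SPC24). Whether the counting used strand is not stated in the labels or processing notes, so for those 13 the reads of the partners cannot be told apart. Of the 27 members without such a partner, 11 of the 26 tested were lower, with a median log2 fold change of -0.94. Of the 16 with one, 2 were lower (NUF2, by 5 shared bases, and SGO1), with a median of -0.18. Over all tested genes 1.99% were called lower by edgeR. The share among all genes with or without such a partner was not counted. What part the reads of the partners had in this contrast was not tested.

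Leaving out 1 library at a time changed how many members were lower from 13 to between 7 and 15. The lowest count came without S-AlgLung 1, when HJURP, SKA3, CENPE, BUB1B, TTK and SGO1 were no longer called. The highest came without S-AlgLung 3, when CENPW and MAD2L1 were added. Calls over all genes moved the same way, with 253 lower without S-AlgLung 1 and 662 without S-AlgLung 3, against 369 with every library. The 14 alternatives include the 6 fits without 1 library. In every alternative that tested them, BUB1, CENPF, CENPI, CENPK, KNL1, NUF2 and ZWINT remained called.

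**Figure D5:**
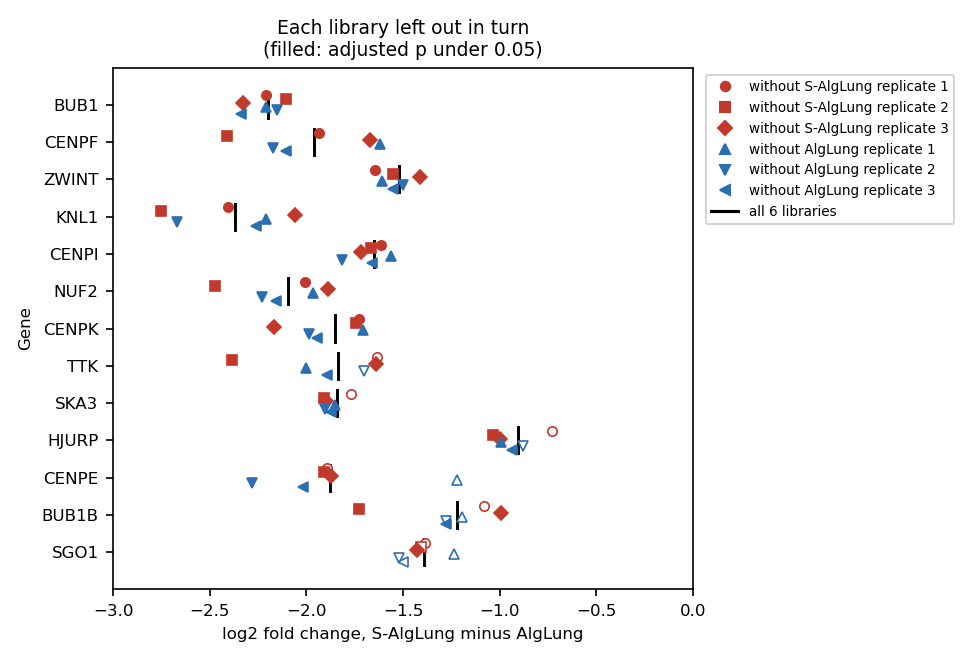
Log2 fold change (S-AlgLung over AlgLung) of the 13 called genes in the fit of all 6 libraries and in the 6 fits that each leave 1 library out; filled symbols have an adjusted p under 0.05. All values stay below 0; that of CENPE moves most, to -1.22 without AlgLung 1.

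Genes that work with these proteins were counted in 5 lists. By edgeR, DESeq2 or limma-voom 0 of their genes were called higher, and 0 had an unadjusted p under 0.05 in that direction. Over all tested genes edgeR called 1.99% lower and 3.15% higher. The share of all genes at the unadjusted p was not counted. In a list of 8 genes 6 fell, with a median log2 fold change of -1.72. It held the chromosomal passenger genes AURKB, INCENP, BIRC5 and CDCA8, the APC coactivators CDC20 and FZR1, and also PLK1 and KIF2C. INCENP (-0.32, adjusted p 0.572 by edgeR) and FZR1 were not called. AURKB, the kinase that corrects faulty attachments, had 2.90, 4.26 and 2.42 CPM in S-AlgLung and 8.97, 13.3 and 11.6 in AlgLung (-1.82, SE 0.26, adjusted p 3.629e-05), with groups apart. FZR1, the coactivator that acts after mitosis, was at 0.01 (adjusted p 0.993). Of 16 other kinetochore and checkpoint genes 3 fell, with a median of -0.38. SPAG5, whose astrin protein steadies attached kinetochores, had 3.76, 3.80 and 3.59 CPM in S-AlgLung and 12.3, 11.2 and 13.0 in AlgLung (-1.71, SE 0.24, adjusted p 1.771e-05), and shares exons with SPAG5-AS1, which had 5.61 times its counts. SPDL1, the Spindly adaptor that links RZZ to dynein, had 3.99, 3.38 and 3.87 CPM in S-AlgLung and 8.36, 6.34 and 7.12 in AlgLung (-0.96, SE 0.25, adjusted p 0.0186). Both genes were lower in all S-AlgLung libraries.

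Of the 14 subunits of the APC, the ubiquitin ligase that the checkpoint restrains, 0 were called by edgeR, DESeq2 or limma-voom. Likewise 0 had an unadjusted p under 0.05 in any of these, and the median was -0.12. With 14 genes, 0 called lies near the edgeR shares over all tested genes, 1.99% lower and 3.15% higher. Cohesin and securin genes gave 3 of 11 lower (median -0.40): CDCA5 (sororin, -1.77), ESPL1 (separase, -1.68) and PTTG1 (securin, -1.36). The core cohesin subunit SMC1A was at -0.05 (adjusted p 0.960). Of 11 genes of the MuvB complex and other regulators of mitotic transcription 3 were lower (median -0.15). FOXM1, an activator of late cell-cycle genes, had 9.97, 9.42 and 7.14 CPM in S-AlgLung and 25.9, 32.7 and 29.0 in AlgLung (-1.73, SE 0.22, adjusted p 8.388e-06). MYBL2, which joins MuvB in S phase, had 6.44, 8.32 and 2.74 CPM in S-AlgLung and 19.2, 25.2 and 19.1 in AlgLung (-1.87, SE 0.28, adjusted p 6.442e-05). Neither gene overlapped between the hydrogels, and FOXM1 shares exon bases with ITFG2, a gene with 0.908 times its counts. RBL1, a pocket protein of the repressing DREAM form of the complex, was the third (-0.89, SE 0.26, adjusted p 0.0398).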

How the data were processed

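Per the submitters' processing notes, reads were aligned with STAR 2.7.3a to GRCh38 and counted with featureCounts; neither the annotation nor the strand setting, nor how reads over overlapping genes were handled, is stated in those notes or the labels. The deposited values are raw counts per gene, made by the authors. A repeated column of 1 AlgLung library differed at 0 genes and was counted as 1 library. Of 62703 gene IDs, 62625 matched the name table. Counts were filtered (filterByExpr, minimum count 10), scaled by TMM factors and tested with edgeR 4.0.16 in R 4.3.3; DESeq2 1.42.0 and limma 3.58.1 were alternatives, as were other scalings, filters, a replicate block and leaving out each library. Levels are TMM-scaled CPM, and CPM per kb divides by exon length. Every member may be named; full values went by rule to the smallest and largest p of each subcomplex, and members added beyond that rule (CENPC, CENPH, CENPT, CENPU, CENPW, MAD2L1) were chosen after their values were seen. The 43 members, the subcomplexes and the further lists were chosen with earlier results of these data known. The number of libraries, 3 per hydrogel, limits the precision.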

Additional observations from a re-analysis of the deposited data

How the results depend on the processing

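Of the 13 members called lower, 7 kept their call in each of the 14 alternatives that tested them. The number called lower was 12 with total counts only, 12 with DESeq2, 11 with limma-voom, 14 with no filter and 9 where a mean of at least 1 CPM was required. In the same order, the genes called lower over all genes were 335, 399, 350, 423 and 308, against 369 in the main fit. Leaving out 1 library gave 7 to 15 members lower and 0 to 1 higher (PMF1 without S-AlgLung 3). Over all genes it gave 244 to 662 lower and 289 to 891 higher, and total counts only gave 333 higher. By subcomplex, leaving out 1 library gave 0 to 1 in centromeric chromatin, 0 to 1 in SKA, 1 to 2 in the corona, 1 to 4 in the checkpoint and 0 to 1 in the shugoshins. A mean of at least 1 CPM left 0 in NDC80, in SKA and in the shugoshins, since it drops NUF2, SKA3 and SGO1. The shugoshin count was also 0 with total counts only, DESeq2 and limma-voom, and the corona count was 1 with limma-voom; the cause was not tested. Members that lost the call without 1 library were HJURP (adjusted p 0.101 without S-AlgLung 1 and 0.0689 without AlgLung 2), SKA3 (0.0623 without S-AlgLung 1), TTK (0.0793 without S-AlgLung 1 and 0.0891 without AlgLung 2), CENPE (0.0685 without S-AlgLung 1 and 0.285 without AlgLung 1), BUB1B (0.146 without S-AlgLung 1, 0.0972 without AlgLung 1 and 0.0960 without AlgLung 2) and SGO1 (0.0873 to 0.225 without any of 5 libraries). CENPE had 0.0830 with limma-voom.

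Log2 fold changes that turned sign were all of uncalled genes. With total counts only, which moves the median of all genes by -0.10, CENPQ was -0.045, MIS12 -0.039 and SKA2 -0.0007507. Leaving out 1 library gave log2 fold changes of -0.33 to 0.13 for CENPB (above 0 without S-AlgLung 3 or AlgLung 2), -0.33 to 0.073 for CENPC (above 0 without AlgLung 1) and -0.26 to 0.039 for CENPN (above 0 without S-AlgLung 1 or S-AlgLung 2). They were -0.34 to 0.35 for CENPP (below 0 without S-AlgLung 3), -0.32 to 0.25 for CENPQ (below 0 without S-AlgLung 3, AlgLung 2 or AlgLung 3) and -0.15 to 0.15 for MIS12 (below 0 without S-AlgLung 3 or AlgLung 2). They were -0.012 to 0.25 for SPC24 (below 0 without AlgLung 1), -0.020 to 0.20 for SKA2 (below 0 without AlgLung 2) and -0.13 to 0.49 for MAD1L1 (below 0 without S-AlgLung 2).

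Same-numbered libraries had deviations correlated at 0.0721, 0.285 and 0.0413, and libraries of different numbers at -0.338 to 0.208. Deviations from means of 3 libraries cannot decide whether same-numbered libraries were paired or shared a batch. With the replicate block 14 members were lower, CENPM being added (-1.02, adjusted p 0.0229). Over all genes the block gave 500 lower and 800 higher, against 369 and 584 without it. Groups of 3 libraries were not tested for outlying samples. Genes such as KNL1, NUF2, SKA3, TTK, CENPK, NDC80 and SKA1 rest on few counts per library, which limits what could be detected.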
